A study of Mus musculus with 6 samples.

Results

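The genes of MHC class I and of peptide loading were followed in E0771 cells, a mammary carcinoma line from the mouse strain C57BL/6, which is also the strain of the reference genome, after the cells had met activated CD8 T cells. The set has 10 members, taken by gene symbol from the 28063 rows of the deposited count table. They are the heavy chain genes H2-K1, H2-D1, H2-M3 and H2-T23, the light chain gene B2m, the peptide transporter genes Tap1 and Tap2, the tapasin gene Tapbp, the trimming enzyme gene Erap1 and the regulator gene Nlrc5. All 10 had a row and all 10 passed the filter on low counts.

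Cell populations of 3 kinds were sequenced, with 2 libraries each. Malt1_WT cells expressed wild-type Malt1, Malt1_PD cells expressed a Malt1 form labelled the PD mutant, an abbreviation that the labels leave unexplained, and Vector cells carried a control vector. Every population had been kept with activated CD8 T cells for 12 h at 3 T cells per tumour cell. The remaining cells were washed, detached, plated again and lysed 6 h later, so all 3 groups are cells that came through contact with T cells. No group without T cells is among the samples, and class I levels before contact were not analysed here. The labels name neither the vector nor its promoter, nor whether a population was a clone or a pool. Each Malt1 form is 1 population, so an effect of the form and another difference between populations cannot be told apart. Whether libraries of 1 group stem from separate cultures is not stated, and p-values then measure a spread between libraries that may be technical.

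MHC class I molecules show peptides from inside the cell to CD8 T cells. The peptide is cut by the proteasome, carried into the endoplasmic reticulum by the TAP transporter, trimmed by ERAP1 and fitted, with the help of tapasin, into a heavy chain paired with beta-2-microglobulin. NLRC5 is the co-activator of class I transcription, and interferon-gamma from T cells is a known inducer of the whole set. In tumour cells these genes bear on whether CD8 T cells can see the cell at all.

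The libraries held 14045390 to 19962014 counts, and the members took 0.159% to 0.185% of them. A floor of 3 counts equals 0.15 to 0.214 CPM (counts scaled to library size) and covers counting error only. Malt1 checked the labels, at 67.1 and 82.0 CPM in Malt1_WT, 105.4 and 95.6 CPM in Malt1_PD, against 23.8 and 31.3 CPM in Vector, so all 4 libraries with added Malt1 lay above both Vector libraries. The check does not show which Malt1 form a library carries. The T cell list had 9 of its 12 genes in the table and summed to 4 to 16 counts in Malt1_WT and 7 to 10 in Malt1_PD, against 8 to 10 in Vector. The B cell list had 3 of 4 genes and summed to 11 to 15 counts in Malt1_WT and 9 to 18 in Malt1_PD, against 19 and 20 in Vector. Of 8 markers of a mammary carcinoma 7 had a row. Krt8 stood at 1742 to 2204 counts and Epcam at 110 to 134, while the defining markers Cdh1, Krt7, Krt18 and Krt19 had at most 12 counts in any library. Of the mesenchymal list, 4 of 5 genes had a row. Vim stood at 58651 to 82518 counts, Zeb1 at 964 to 1523 and Fn1 at 1 to 3. Col1a1 had 54.8 and 61.6 CPM in Malt1_WT, 56.8 and 53.3 CPM in Malt1_PD, against 30.7 and 36.1 CPM in Vector.

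The libraries of a pair were not equally alike. Replicates 1 and 2 differed beyond counting error for 5 of 10 members in Malt1_WT and 0 in Malt1_PD, against 7 in Vector. Erap1 and H2-T23 did so in no group. The share of all genes doing so was not computed. A deeply counted gene can pass at a small ratio, as H2-D1 did at 1.04 in Malt1_WT. Across 9569 genes, replicates 1 and 2 differed with an SD of 0.183 log2 units in Malt1_WT and 0.138 in Malt1_PD, against 0.295 in Vector. The difference followed gene length in Malt1_WT (Spearman rho across genes of -0.53) and in Vector (-0.67), and not in Malt1_PD (0.05). The share of counts on the longest genes, of 9223 bases and up, was 13.8% in Malt1_WT replicate 1, 12.4% in Vector replicate 1 and 15.0% to 15.9% in the others. The members span 860 bases (B2m) to 8493 bases (Nlrc5) and so lie on both sides of this trend. Values with the trend removed or without a Vector library stand beside several results.

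In RPKM, which is CPM divided by gene length in kilobases and allows levels of different genes to be compared, B2m stood highest in every library. It averaged 557.9 ± 38.0 RPKM in Malt1_WT and 538.8 ± 3.75 in Malt1_PD, against 606.9 ± 54.8 in Vector (SD, n = 2 each). In each group 99.7% of the protein-coding genes lay below it. H2-D1 came next with 232.9 ± 6.22 RPKM in Malt1_WT and 223.0 ± 0.0422 in Malt1_PD, against 257.1 ± 32.3 in Vector. The light chain was thus at 2.36 to 2.42 times the level of the most abundant heavy chain, and at 1.89 to 2.02 times the 4 heavy chains together in single libraries.

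Tapbp followed at 50.8 ± 0.566 RPKM in Malt1_WT and 46.3 ± 0.961 in Malt1_PD, against 48.5 ± 5.04 in Vector, and then H2-K1 at 35.5, 32.2 and 36.9 RPKM in the same groups. Tap2 lay between 20.9 and 21.7 RPKM in the group means and Tap1 between 13.4 and 14.7. H2-M3 came to 10.2 RPKM in Malt1_WT and 10.8 in Malt1_PD, against 13.7 in Vector. Erap1 reached 8.91 and 9.63 RPKM, against 7.68 in Vector. Nlrc5 and H2-T23 had the lowest levels, between 5.00 and 5.71 RPKM, and their libraries overlapped in all 3 groups. Tap1 and H2-M3 overlapped in Vector. No other neighbours in this order overlapped within a group. B2m stood at 104, 104 and 106 times the level of its regulator Nlrc5 in Malt1_WT, Malt1_PD and Vector.

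**Figure D1:**
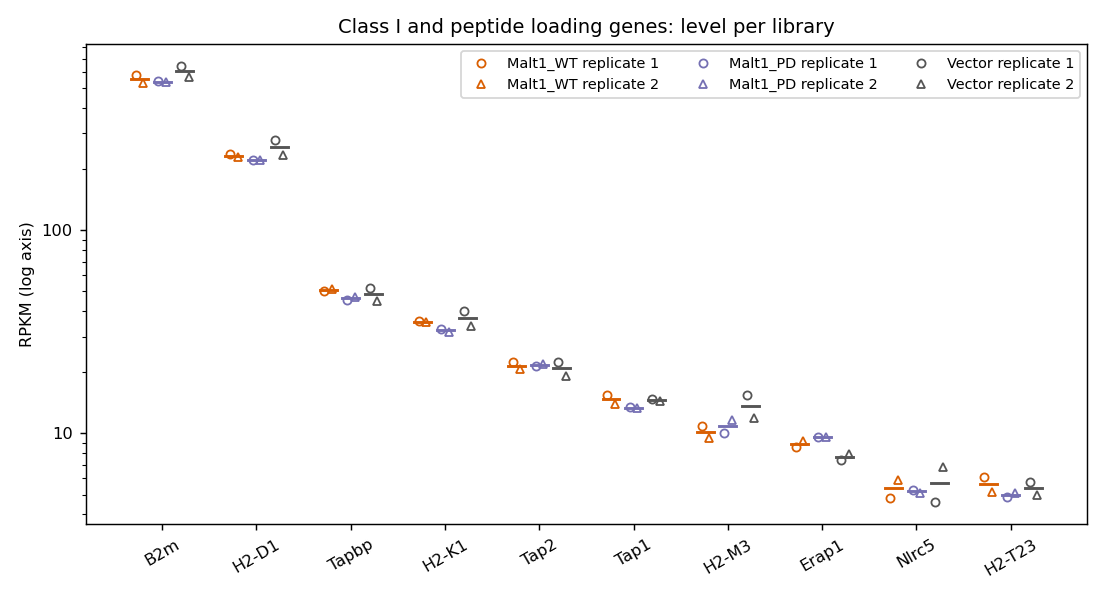
Level of each class I and peptide loading gene in RPKM (log axis) in the 6 libraries. Circles and triangles are replicates 1 and 2, and bars are the means of Malt1_WT, Malt1_PD and Vector (n = 2 each). B2m lies at 531.1 RPKM or more in every library, and Nlrc5 and H2-T23 lie between 4.57 and 6.84 RPKM with overlapping libraries.

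H2-D1 made up 81.8% and 82.1% of the summed RPKM of the 4 heavy chains in Malt1_WT and 82.4% and 82.2% in Malt1_PD, against 82.0% and 82.2% in Vector. H2-K1 gave 12.3% and 12.7% in Malt1_WT and 12.1% and 11.6% in Malt1_PD, against 11.8% and 11.8% in Vector. The shares of the rarer chains varied more. H2-M3 gave 3.77% and 3.42% in Malt1_WT and 3.72% and 4.28% in Malt1_PD, against 4.54% and 4.19% in Vector. H2-T23 gave 2.10% and 1.86% in Malt1_WT and 1.80% and 1.89% in Malt1_PD, against 1.69% and 1.75% in Vector. The ratio of H2-D1 to H2-K1 lay between 6.49 and 7.06 in all 6 libraries. It rests on the deposited length of H2-K1, 2608 bases, while the exons of H2-K1 in GENCODE M21 cover 2938 bases. With the longer length the RPKM and share of H2-K1 would be lower and the ratio higher. H2-D1 and H2-K1 are the classical class I genes, which present peptides to most CD8 T cells. Of the 150-base stretches of their transcripts, 0% of H2-K1 and 1.35% of H2-D1 are shared with another gene, H2-Q1 in the case of H2-D1, and H2-Q1 had 1 to 5 counts a library. The ratio of the transporter genes Tap1 to Tap2 ranged more widely, at 0.687 and 0.677 in Malt1_WT and 0.625 and 0.609 in Malt1_PD, against 0.653 and 0.750 in Vector, and the Malt1_WT values lay inside the range of the Vector pair.

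H2-K1 (ENSMUSG00000061232.15, minus strand, chr17:33996017-34000347 in GRCm38, as are all gene positions here) and H2-D1 (ENSMUSG00000073411.11, plus strand, chr17:35262730-35267499) lie on the same chromosome. The promoters of class I genes are known for a row of short motifs, namely a kappaB site bound by NF-kB, an interferon-stimulated response element (ISRE) or a shorter IRF core bound by interferon regulatory factors, and an X2 box and a Y box, parts of the module to which NLRC5 is recruited through RFX, CREB/ATF1 and NF-Y. The RefSeq promoter table (GRCm38.p6) holds windows of 300 bases, 250 before and 50 after the start, for 8 of the 10 members and 27025 genes in all. Tap2 and Nlrc5 have no entry. The stretches are shown for 3 members whose X2 and Y boxes lie close together before the annotated gene. H2-D1 has the same pair, but its stretch lies in an annotated exon and is not shown. The capitals mark kappaB (GGG, any NN, then TTCCC), the ISRE (GAAA, any NN, then GAAA), the IRF core (AANNGAAA), X2 (TGACG) and Y (ATTGG), each read on both strands, and every ISRE holds an IRF core. Of the boxes, the capitals mark the X2 and Y pair alone, and a further Y box of H2-M3, read on the other strand between the marked boxes, is left in lower case.
H2-K1 promoter, chr17:34000354-34000463, minus strand: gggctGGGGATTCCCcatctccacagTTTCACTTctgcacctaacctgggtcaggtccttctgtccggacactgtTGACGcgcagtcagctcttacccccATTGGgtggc
H2-M3 promoter, chr17:37270128-37270219, plus strand: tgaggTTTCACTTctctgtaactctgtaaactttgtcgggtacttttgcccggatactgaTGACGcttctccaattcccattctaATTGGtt
B2m promoter, chr2:122147543-122147643, plus strand: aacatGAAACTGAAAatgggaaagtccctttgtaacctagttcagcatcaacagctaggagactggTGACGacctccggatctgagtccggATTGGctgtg

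In these 3 windows, and in that of H2-D1, exactly 20 bases lie between the X2 and the Y box. Such a pair stood in 31 of 32851 windows (0.0944%), those of 27 genes. The gap was chosen after these windows had been seen, and the count is a description. The kappaB motif was found in the H2-K1 and H2-D1 windows and in 1.75% of all windows, and the ISRE in the windows of B2m, H2-T23 and Erap1 and in 3.44% of all. The IRF core is common, at 23.9% of windows, as are single X2 boxes (20.8%) and Y boxes (37.4%). A match is a description of letters, and shows no binding in these cells.

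H2-K1 had 93.1 and 91.9 CPM in Malt1_WT, 85.4 and 82.3 CPM in Malt1_PD, against 104.7 and 87.8 CPM in Vector. H2-D1 had 611.9 and 589.2 CPM in Malt1_WT, 575.2 and 575.0 CPM in Malt1_PD, against 721.9 and 604.2 CPM in Vector. For both genes Vector replicate 1 was the highest library, the Malt1_PD pair lay below all others, and Malt1_WT overlapped Vector. The log2 fold changes of Malt1_WT over Vector were -0.06 ± 0.10 (SE) for H2-K1 and -0.14 ± 0.09 for H2-D1. Those of Malt1_PD over Vector were -0.20 ± 0.10 and -0.21 ± 0.09. None passed the quasi-likelihood test of edgeR, adjusted by Benjamini-Hochberg over all genes (adjusted p between 0.602 and 0.944).

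The size of these values, and which passed the threshold, changed with the Vector library used. In Malt1_PD over Vector both genes stayed below 0 with either library. A fit of this kind holds only 1 Vector library, which is assumed to vary like the other groups. Without Vector replicate 2, H2-K1 stood at -0.32 and H2-D1 at -0.33 in Malt1_PD over Vector, both past the threshold (edgeR adjusted p of 0.0433 and 0.0236). Without Vector replicate 1 both were at -0.07 (edgeR adjusted p of 0.787 and 0.727). In Malt1_WT over Vector, H2-D1 was at -0.27 without Vector replicate 2 and at -0.01 without replicate 1, and H2-K1 at -0.18 and 0.08. The heavy chain genes are short, of 1438 to 2889 bases. With the length trend removed, Malt1_PD over Vector gave -0.15 ± 0.07 for H2-K1 and -0.16 ± 0.06 for H2-D1 (edgeR adjusted p of 0.411 and 0.2995). Malt1_WT over Vector then gave -0.02 ± 0.07 and -0.11 ± 0.06 (edgeR adjusted p of 0.9405 and 0.5452).

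H2-M3 (ENSMUSG00000016206.6, plus strand, chr17:37270220-37274484), a non-classical heavy chain that presents peptides starting with N-formyl methionine, had 15.7 and 13.7 CPM in Malt1_WT, 14.5 and 16.7 CPM in Malt1_PD, against 22.3 and 17.2 CPM in Vector. All 4 libraries with added Malt1 lay below both Vector libraries, the nearest by a narrow margin. The log2 fold change was -0.43 ± 0.16 in Malt1_WT over Vector, the furthest from 0 among the members in that comparison (edgeR, unadjusted p = 0.0301, adjusted p = 0.648). In Malt1_PD over Vector it was -0.34 ± 0.16 (edgeR adjusted p = 0.614). Without Vector replicate 2 the Malt1_WT value was -0.61 and just past the threshold (edgeR adjusted p = 0.0497), and without Vector replicate 1 it was -0.23 (adjusted p = 0.571). The Malt1_PD value was -0.51 without Vector replicate 2 and -0.14 without replicate 1. H2-M3 and H2-T23 had the fewest counts among the members, from 221 in a library.

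H2-T23 (ENSMUSG00000067212.8, minus strand, chr17:36029773-36032855) encodes Qa-1, a non-classical molecule known as a ligand of NKG2A receptors on NK and T cells. It had 17.6 and 14.9 CPM in Malt1_WT, 14.1 and 14.8 CPM in Malt1_PD, against 16.6 and 14.4 CPM in Vector. The Malt1_PD pair lay just below the Malt1_WT pair and overlapped Vector. The log2 fold changes were 0.07 ± 0.14 in Malt1_WT over Vector, -0.10 ± 0.14 in Malt1_PD over Vector and -0.17 ± 0.14 in Malt1_PD over Malt1_WT, none past edgeR's threshold.

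B2m (ENSMUSG00000060802.8, plus strand, chr2:122147686-122153083), the light chain without which class I molecules do not reach the surface stably, had 502.9 and 456.7 CPM in Malt1_WT, 465.7 and 461.1 CPM in Malt1_PD, against 555.3 and 488.6 CPM in Vector. The Malt1_PD pair lay below the Vector pair, and Malt1_WT replicate 1 lay inside it. The log2 fold changes were -0.12 ± 0.09 in Malt1_WT over Vector (edgeR adjusted p = 0.840) and -0.17 ± 0.09 in Malt1_PD over Vector (edgeR adjusted p = 0.645). Without Vector replicate 1 these values were -0.03 and -0.07, and without Vector replicate 2 they were -0.21 and -0.26. With the length trend removed the highest library was no longer Vector replicate 1 but Vector replicate 2, which stood 0.22 log2 units above the mean of the 6 libraries.

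Tap1 (ENSMUSG00000037321.17, plus strand, chr17:34187553-34197225) and Tap2 (ENSMUSG00000024339.12, plus strand, chr17:34203527-34216321) encode the subunits of the peptide transporter and neighbour each other. Tap1 had 84.4 and 76.6 CPM in Malt1_WT, 73.6 and 73.1 CPM in Malt1_PD, against 80.7 and 79.1 CPM in Vector. The Malt1_PD pair was the lowest of the 3 pairs, and Malt1_WT spanned Vector. The log2 fold change was 0.01 ± 0.09 in Malt1_WT over Vector and -0.12 ± 0.09 in Malt1_PD over Vector. The Malt1_PD value lay between -0.14 and -0.11 under every alternative tried. Tap2 had 84.8 and 78.1 CPM in Malt1_WT, 81.3 and 83.0 CPM in Malt1_PD, against 85.4 and 72.8 CPM in Vector, and all 3 pairs overlapped (log2 fold changes of 0.04 ± 0.10 and 0.05 ± 0.10 over Vector). Neither gene passed edgeR's threshold with all 6 libraries in the fit. With replicate 1 of both Malt1_WT and Vector left out, Tap2 was at 0.18 in Malt1_PD over Vector. The spread in that fit rests on the Malt1_PD libraries.

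Tapbp (ENSMUSG00000024308.15, plus strand, chr17:33915899-33929292) encodes tapasin, which holds the empty heavy chain to the transporter. It had 182.9 and 185.8 CPM in Malt1_WT, 165.3 and 170.3 CPM in Malt1_PD, against 188.7 and 162.9 CPM in Vector. The Malt1_PD pair lay below the Malt1_WT pair, and the Vector pair reached beyond both. The log2 fold changes were 0.07 ± 0.09 in Malt1_WT over Vector, -0.07 ± 0.09 in Malt1_PD over Vector and -0.14 ± 0.09 in Malt1_PD over Malt1_WT (edgeR adjusted p of 0.931, 0.872 and 1). Leaving out replicate 1 of both Malt1_WT and Vector put Tapbp at 0.19 in Malt1_WT over Vector. The spread in that fit rests on the Malt1_PD libraries. Of its 3948 distinct 150-base stretches 398 are shared with Gm19412, which overlaps it on the opposite strand and had no row. Tapbp also shares 149 exon bases with Zbtb22 on the same strand, and Zbtb22 had 611 to 851 counts a library.

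Erap1 (ENSMUSG00000021583.7, plus strand, chr13:74639568-74693201), the aminopeptidase that trims peptides inside the endoplasmic reticulum, was the member furthest above 0 in each comparison. It had 62.5 and 67.2 CPM in Malt1_WT, 70.06 and 70.2 CPM in Malt1_PD, against 54.0 and 57.8 CPM in Vector. The 3 pairs did not overlap, with Malt1_PD highest and Vector lowest. The log2 fold change was 0.22 ± 0.09 in Malt1_WT over Vector (edgeR, unadjusted p = 0.0396, adjusted p = 0.675). In Malt1_PD over Vector it was 0.33 ± 0.09, a fold of 1.25 with a 95% interval of 0.13 to 0.53 on the log2 scale (edgeR, unadjusted p = 0.00573, adjusted p = 0.377).

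Erap1 ranked 222 by p among the 14675 genes tested in Malt1_PD over Vector and did not pass the threshold. It stayed above 0 whichever Vector library was left out, at 0.28 without replicate 1 (edgeR adjusted p = 0.212) and 0.38 without replicate 2 (adjusted p = 0.0382, past the threshold). Without replicate 1 of both Malt1_WT and Vector it was 0.28, in a fit whose spread rests on the Malt1_PD libraries. It was 0.31 ± 0.07 with the length trend removed (edgeR adjusted p = 0.0947), which bears on it since Erap1, of 7280 bases, is among the longer members. Exons of Erap1 overlap 834 bases of Cast, a gene on the opposite strand, and 9.43% of the 150-base stretches of its transcripts are shared with Cast. The strand setting of the counting is not given in the sources used here. Cast itself had log2 fold changes of -0.16 in Malt1_WT and -0.09 in Malt1_PD over Vector. The part of Cast reads in the Erap1 counts was not tested.

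Nlrc5 (ENSMUSG00000074151.13, plus strand, chr8:94434356-94527272), the class I co-activator, had 41.0 and 50.3 CPM in Malt1_WT, 44.9 and 43.0 CPM in Malt1_PD, against 38.9 and 58.1 CPM in Vector. The Vector pair held both the lowest and the highest library, so the other pairs lay inside it. Replicate 1 of Vector was 0.669 times replicate 2 (95% counting interval 0.608 to 0.737), the widest gap between replicates among the members, while the ratio was 0.815 in Malt1_WT and 1.04 in Malt1_PD. The log2 fold changes were -0.08 ± 0.18 in Malt1_WT over Vector and -0.14 ± 0.18 in Malt1_PD over Vector. They changed sign with the Vector library, at -0.34 and -0.40 without replicate 1 and at 0.24 and 0.18 without replicate 2. Without replicate 1 of both Malt1_WT and Vector, the Malt1_PD value was -0.40, in a fit whose spread rests on the Malt1_PD libraries. In Malt1_WT over Vector the sign also changed without Malt1_WT replicate 1 (0.05).

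**Figure D2:**
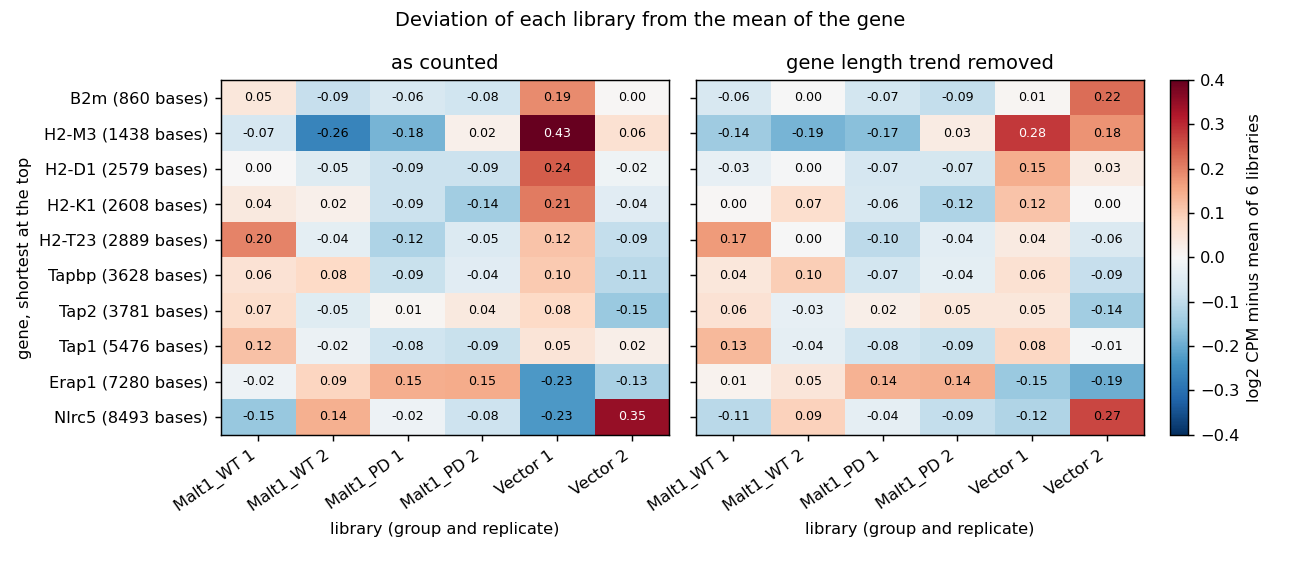
Deviation of each library from the mean of the gene over 6 libraries, in log2 CPM, for the 10 genes ordered by length, as counted (left) and with the gene length trend removed (right). Vector replicate 1 is above the mean for short genes (B2m 0.19, H2-M3 0.43, H2-D1 0.24) and below it for Erap1 and Nlrc5 (-0.23 each), and Vector replicate 2 stays high for Nlrc5 (0.27) on the right.

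Counts of members were then set beside those of all genes. Malt1_WT over Vector had 0 of 10 members called higher and 0 called lower by edgeR, where 0.00681% of all genes tested were called, Cd274 alone. Malt1 itself, with a log2 fold change of 1.44 ± 0.15, was not called in this comparison (edgeR adjusted p = 0.0920). A member that was not called is thus not shown to be unchanged. At an unadjusted p under 0.05, 1 member was higher (Erap1) and 1 lower (H2-M3), against 3.3% and 3.8% of all genes. The libraries did not overlap for 1 member above Vector and 1 below it, against 15.5% and 17.1% of all genes. The members' median log2 fold change was -0.02, against 0.00 for all genes, with 5 members above 0 and 5 below. DESeq2 and limma-voom also called 0 members. These counts are near the shares of all genes.

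The 95% intervals of the members in this comparison reached from -0.80 (H2-M3) to 0.42 (Erap1) and so left out a doubling of any member, which is 1 on this scale. Cd274, which encodes PD-L1, stood at 468.1 and 544.4 CPM in Malt1_WT. It had 4.87 and 3.56 CPM in Malt1_PD, against 4.22 and 4.36 CPM in Vector. Its log2 fold change of 6.88 ± 0.16 in Malt1_WT over Vector (edgeR adjusted p = 1.24e-06) stood beside member values between -0.43 (H2-M3) and 0.22 (Erap1). The cause of the Cd274 difference was not tested.

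Malt1_PD over Vector again had 0 of 10 members called higher and 0 called lower by edgeR, where 0.00681% of all genes were called, Malt1 alone. At an unadjusted p under 0.05, 1 member was higher (Erap1) and 0 lower, against 3.73% and 4.88% of all genes. The libraries did not overlap for 5 members below Vector (H2-K1, H2-D1, H2-M3, B2m and Tap1), against 19.7% of all genes, and for 1 above it (Erap1), against 18.4%. Of the members 8 lay below 0 and 2 above, and the median was -0.13, against 0.00 for all genes. These counts share the same Vector pair with each other and with the comparison above, and the members were chosen with earlier results known, so they describe the list and test nothing. DESeq2 and limma-voom called 0 members.

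The sums of the myeloid and mesenchymal marker lists were lowest in Malt1_PD and highest in Vector, while single genes of these lists differed. The myeloid markers, with 7 of 7 in the table, summed to 18.4 to 20.6 CPM in Malt1_WT, 17.8 to 17.9 in Malt1_PD, against 22.1 to 24.4 in Vector. Adgre1 was at 0 to 2 counts and Itgam at 0 to 7, and most of the sum came from Cd14 and Cd68. The Vector pairs of Itgax (1.95 and 2.45 CPM) and Lyz2 (3.12 and 2.06 CPM) overlapped the other groups. Fewer cells of a type and less RNA per cell cannot be told apart in such sums. The mesenchymal list, nearly all of it Vim, summed to 4130 to 4300 CPM in Malt1_WT, 3910 to 4020 in Malt1_PD, against 4300 to 4690 in Vector. The part of these markers in the class I values was not tested.

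Malt1_PD over Malt1_WT, the comparison that leaves out the Vector pair, had 0 of 10 members called in either direction by edgeR, where 0.00681% of all genes were called, Cd274 alone. No member had an unadjusted p under 0.05, against 1.08% of genes higher and 0.838% lower. The libraries did not overlap for 5 members lower in Malt1_PD (H2-K1, H2-D1, H2-T23, Tap1 and Tapbp), against 16.1% of all genes, and for 1 higher (Erap1), against 16% of all. The median was -0.06, against 0.00 for all genes, with single values between -0.17 (H2-T23) and 0.11 (Erap1). The 95% intervals reached from -0.50 to 0.47. DESeq2 and limma-voom called 0 members here too. H2-K1 and H2-D1 stood at -0.14 ± 0.10 and -0.06 ± 0.09, and B2m at -0.05 ± 0.09.

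**Figure D3:**
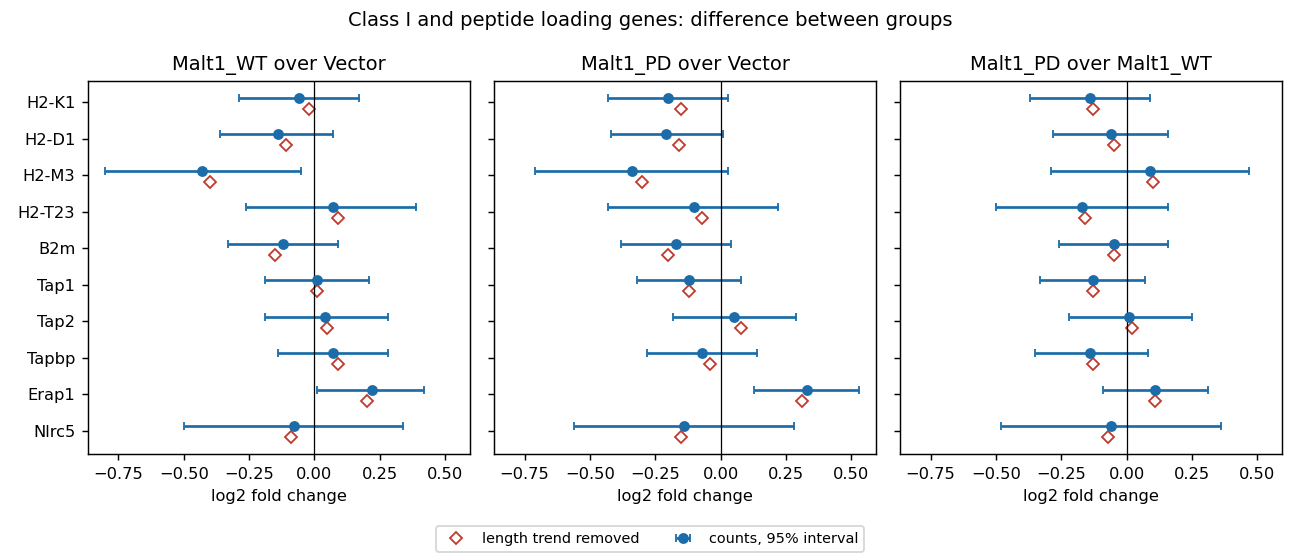
Log2 fold change of the 10 genes in the 3 comparisons. Filled points with bars are the edgeR values on the counts with their 95% intervals, and open diamonds are the values with the gene length trend removed. Most intervals cross 0, with H2-M3 and Erap1 in Malt1_WT over Vector and Erap1 in Malt1_PD over Vector as the exceptions before adjustment over all genes.

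**Figure D4:**
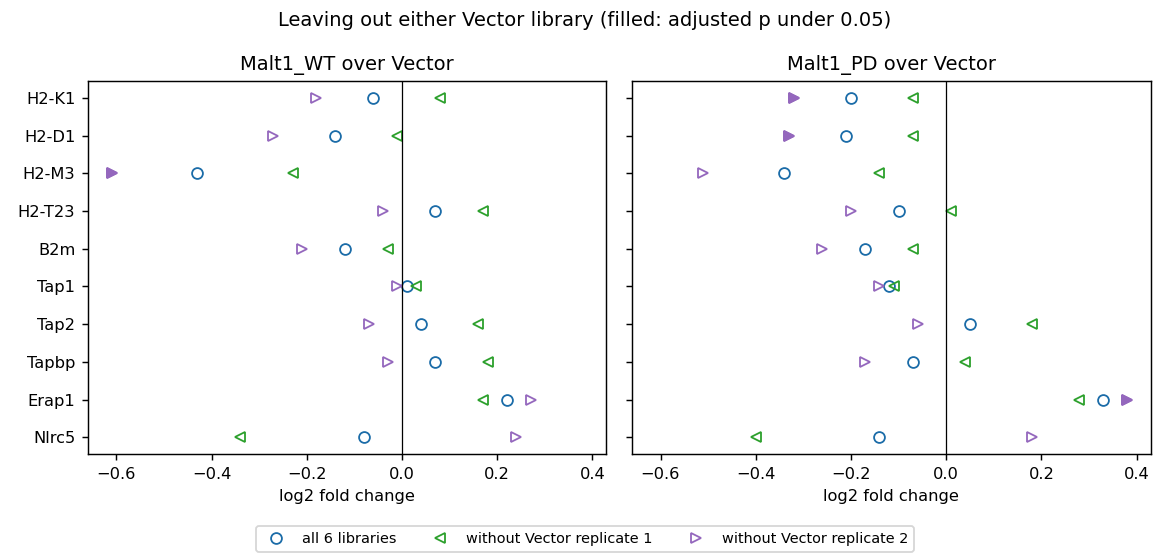
Log2 fold change of the 10 genes over Vector with all 6 libraries and without either Vector library, which then leaves 1 Vector library that is assumed to vary like the other groups. Filled points have an edgeR adjusted p under 0.05. Leaving out replicate 2 moves the heavy chains and B2m down, leaving out replicate 1 moves them up, and Nlrc5 and Erap1 go the other way.

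The rest of the pathway was read from lists of genes that act beside the members. Of 14 genes of peptide supply and loading, all were tested and 0 were called higher or lower in any comparison, with medians of -0.05 in Malt1_WT over Vector, -0.05 in Malt1_PD over Vector and -0.01 in Malt1_PD over Malt1_WT. In Malt1_PD over Vector 12 lay below 0 and 2 above, and in Malt1_WT over Vector 8 lay below and 6 above. Tapbpl, which encodes the tapasin relative TAPBPR, an editor of loaded peptides, had 12.6 and 13.8 CPM in Malt1_WT, 14.2 and 12.8 CPM in Malt1_PD, against 10.5 and 10.8 CPM in Vector. All 4 lay above Vector (0.31 ± 0.14 and 0.34 ± 0.14, edgeR adjusted p of 0.700 and 0.556). Psmb9, an interferon-induced proteasome subunit gene that shares exon bases with Tap1 on the opposite strand, stood at -0.22 ± 0.14 in Malt1_WT over Vector. The peptidase gene Blmh stood at -0.23 ± 0.11 and -0.17 ± 0.11 over Vector, and the proteasome activator gene Psme1 at -0.20 ± 0.12 in Malt1_PD over Vector. In Malt1_PD over Malt1_WT the smallest p-values were those of the peptidase genes Npepps (-0.10 ± 0.07) and Thop1 (-0.09 ± 0.08) and of Psme2 (-0.16 ± 0.15).

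Of 22 other class I and class I-like heavy chain genes 18 had a row, 8 were tested and 0 were called. Medians of the 8 were -0.12 in Malt1_WT over Vector, -0.16 in Malt1_PD over Vector and -0.08 in Malt1_PD over Malt1_WT. In each comparison over Vector 7 lay below 0 and 1 above, where 50.3% of all genes lay below. Both comparisons share the Vector pair, and these counts test nothing. H2-Q7, H2-T9, H2-M9 and Azgp1 had no row, and H2-Q1, H2-Q2, H2-Q4, H2-Q6 and H2-Q10 had at most 8 counts in any library. H2-T22 was the most abundant in counts, at 66.5 and 60.2 CPM in Malt1_WT, 59.0 and 57.8 CPM in Malt1_PD, against 69.2 and 67.6 CPM in Vector. It stood at -0.23 ± 0.09 in Malt1_PD over Vector (edgeR adjusted p = 0.548). Fcgrt, which encodes the neonatal Fc receptor, stood at -0.40 ± 0.15 there, and Cd1d1 and Mr1, which present lipids and vitamin B metabolites, at -0.23 ± 0.13 and -0.23 ± 0.15 in Malt1_WT over Vector. Cd1d2 had 10 and 13 counts in Malt1_WT and 11 and 4 in Malt1_PD, against 3 and 2 in Vector, too near the floor for a fold to be read.

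Of 23 regulators of class I transcription and turnover, all were tested and 0 were called, with medians of 0.01 in Malt1_WT over Vector, -0.01 in Malt1_PD over Vector and 0.01 in Malt1_PD over Malt1_WT. Irf2, an interferon regulatory factor gene, stood at -0.25 ± 0.09 in Malt1_PD over Vector, with 36.8 and 37.5 CPM in Malt1_PD against 43.6 and 44.8 CPM in Vector.

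None of the other regulators named here passed the threshold either. Atf1, a factor of the X2 box, stood at -0.16 ± 0.08 in Malt1_WT and -0.15 ± 0.08 in Malt1_PD over Vector, and Irf8 at -0.30 ± 0.17 in Malt1_WT over Vector. Irgq, whose product is known to steer class I molecules to autophagy, stood at 0.38 ± 0.14 in Malt1_WT over Vector. Nfyc, a subunit of the Y box factor NF-Y, stood at 0.19 ± 0.10 in Malt1_PD over Malt1_WT, and March9, a ubiquitin ligase gene, at -0.18 ± 0.10.

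Genes whose pattern over the 6 libraries was most like that of a member were named by Pearson's r of log2 CPM among 9569 genes. For Nlrc5 these were Arhgap11a (0.997), Six4 (0.996), Faf2 (0.992), Tead1 (0.991) and Uspl1 (0.990), all of 5332 bases or more. With the length trend removed r was 0.976, 0.883, 0.099, 0.914 and -0.217, so the likeness of Faf2 and Uspl1 was not there without the trend. For H2-K1 they were Rundc3a (0.991), Rbmx2 (0.989), Wdyhv1 (0.985), Psmd11 (0.984) and Gtf2a1 (0.979), with r between 0.781 and 0.984 after removal of the trend. No other member was among them. All points share the same 6 libraries, and r is a description.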

How the data were processed

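The 10 members, the gene lists and the tests were chosen with earlier results of these data known. Per the labels' protocols, a directional kit and total RNA were used, with paired reads of 150 bases. The submitters' processing notes name Trim Galore 0.6.0, STAR 2.7.3a, featureCounts 1.6.3 and build GRCm38.p6. The values used are the whole-number counts per gene that the authors deposited, not normalised, and the gene lengths beside them. The annotation version, like the strand setting, is not given in the sources used here. Another 6 columns of values in the table were not used, 4 of them with repeated names. Gene positions are from GENCODE M21 and promoters from RefSeq (GRCm38.p6).

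Counts of the 6 libraries were fitted together with edgeR 4.0.16 in R 4.3.3 (filterByExpr by group, 14675 genes, TMM factors, glmQLFit and glmQLFTest, a mean per group, no covariate). P-values are two-sided and Benjamini-Hochberg adjusted over all genes tested, and a gene was called at an adjusted p under 0.05. SE come from the quasi-likelihood F, and 95% intervals from the t distribution with the fit's degrees of freedom. The common dispersion was 0.0101, with 3 residual degrees of freedom. CPM and RPKM use TMM library sizes, except that the floor and the CPM of the cell type marker lists and their genes use total counts. Likeness between genes was read among those with a mean log2 CPM of at least 3. Alternatives were DESeq2 1.42.0, its size factors, limma-voom (limma 3.58.1), no filter, the replicate number as a block, only the groups compared, a smooth length trend removed per library, and libraries left out. All members are named in all comparisons, and of each list every called gene and the 3 with the smallest p. A gene picked by this rule is not reported here. The fits were tested on simulated data with a fixed dispersion and no gene length trend. That test does not cover the length trend between replicates seen here.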

Additional observations from a re-analysis of the deposited data

How the results depend on the processing

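With all 6 libraries, edgeR called 1 gene and 0 members in each comparison, and 0 members were called with DESeq2 size factors, no filter, DESeq2, limma-voom, only the groups compared, the replicate block or the length trend removed. Genes called changed more. In Malt1_WT over Vector they numbered 113 with no filter, 28 with DESeq2, 6 with the replicate block and 56 with the length trend removed. In Malt1_PD over Vector the same settings gave 188, 42, 9 and 95. In Malt1_PD over Malt1_WT, no filter gave 12. The groups share 2 replicate numbers, and the labels tie them to no common culture or day, so the block stands here as an alternative. The differences of replicate 1 minus replicate 2 correlated across genes at 0.68 between Malt1_WT and Vector. They correlated at 0.03 between Malt1_PD and Malt1_WT and -0.01 between Malt1_PD and Vector. The replicate 1 libraries of Malt1_WT and Vector are those low on long genes. Leaving out 1 library gave 1 to 526 genes and 0 to 1 members in Malt1_WT over Vector and 0 to 864 genes and 0 to 3 members in Malt1_PD over Vector, the highest of each without Vector replicate 2. With the 2 libraries low on long genes left out together (Malt1_WT replicate 1 and Vector replicate 1), 934 genes and 1 member (Tapbp) were called in Malt1_WT over Vector, 2088 genes and 3 members (Tap2, Erap1 and Nlrc5) in Malt1_PD over Vector, and 351 genes and 0 members in Malt1_PD over Malt1_WT. The spread in that fit rests on Malt1_PD only, whose libraries differed least.

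Values of single members changed sign as follows, and the cause was not tested. Without both libraries low on long genes, Malt1_WT over Vector gave H2-K1 0.07 and Tap1 -0.04, Malt1_PD over Vector gave H2-T23 0.01 and Tapbp 0.05, and Malt1_PD over Malt1_WT gave B2m 0.02. Leaving out 1 library gave these ranges of log2 fold change. In Malt1_WT over Vector they were -0.18 to 0.08 for H2-K1, -0.05 to 0.18 for H2-T23, -0.06 to 0.08 for Tap1, -0.07 to 0.16 for Tap2, -0.03 to 0.18 for Tapbp and -0.34 to 0.24 for Nlrc5. In Malt1_PD over Vector they were -0.20 to 0.01 for H2-T23, -0.06 to 0.18 for Tap2, -0.17 to 0.04 for Tapbp and -0.40 to 0.18 for Nlrc5. In Malt1_PD over Malt1_WT they were -0.02 to 0.19 for H2-M3, -0.12 to 0.02 for B2m, -0.05 to 0.07 for Tap2 and -0.19 to 0.10 for Nlrc5. Of 140 values a comparison, over 14 settings, 126, 128 and 133 kept their direction and side of the threshold. Of 30 group levels in RPKM, 1 moved beyond its spread with DESeq2 size factors (H2-D1 in Malt1_PD, 223.1 RPKM). Among the widest 95% intervals of a member, that of Nlrc5 in Malt1_WT over Vector was -0.50 to 0.34. Such an interval is not the limit of detection, since a call needs an adjusted p over all genes tested. With 2 libraries a group, changes inside it, and some well beyond it, can go uncalled. Malt1 was not called in that comparison at 1.44 ± 0.15 (edgeR adjusted p = 0.0920).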

Other observations

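The class II side of antigen presentation was read from 6 genes, all with a row. H2-Aa, H2-Ab1 and H2-Eb1, which encode the peptide-binding class II chains, had 0 to 3 counts in every library, at or below the floor. H2-DMa, which encodes part of the class II peptide exchanger, had 15.7 and 12.7 CPM in Malt1_WT, 15.5 and 14.01 CPM in Malt1_PD, against 16.6 and 13.2 CPM in Vector, and its partner gene H2-DMb1 lay between 12.1 and 16.1 CPM. Both were thus counted in cells with next to no counts of the chains they serve. Cd74, the invariant chain gene, stood at 1.99 to 3.38 CPM. Of the 3 class II genes tested 0 were called in any comparison by edgeR, and their medians were -0.12 in Malt1_WT over Vector, -0.01 in Malt1_PD over Vector and 0.06 in Malt1_PD over Malt1_WT. Ciita, the class II counterpart of Nlrc5, had 3 to 13 counts, where Nlrc5 had 577 to 1038.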
